A study of Homo sapiens with 12 samples.

Results

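RNA-seq was examined for 10 genes of the BCL2 family, which holds the proteins that protect mitochondria from, or expose them to, the permeabilization that commits a cell to apoptosis. The members were taken by gene name from a table of 58735 genes: the survival genes BCL2, BCL2L1 (BCL-XL), MCL1 and BCL2A1, the BH3-only genes BCL2L11 (BIM), BBC3 (PUMA), PMAIP1 (NOXA) and BIK, and the pore-forming effectors BAX and BAK1. All 10 names were found, and 9 of the 10 genes passed the filter on low counts and were tested among 20821 genes. The member that did not pass was BCL2A1. The cells were K562, an erythroleukemia line that depends on the BCR-ABL1 fusion kinase. By the study's methods they were pretreated for 24 h with nilotinib at 0.1 µM or its DMSO vehicle. Nilotinib is a tyrosine kinase inhibitor (TKI) that blocks BCR-ABL1. Hemin, which makes K562 cells accumulate hemoglobin, was then given at 50 µM for 24 h, or no hemin was given (mock, 0 h). The 4 conditions, each with 3 biological replicates of this single line, are called mock DMSO and mock nilotinib, which had no hemin, and hemin DMSO and hemin nilotinib, which had it. The study's methods place the mock collection at the time at which hemin was added, whereas its scheme draws one collection time for all cells. In the first case the mock and hemin libraries also differ by 24 h of culture. Where the drug stayed on, the nilotinib libraries then differ in their time under it as well. These differences and hemin cannot be told apart.

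In the BCL2 family, survival proteins hold the effectors BAX and BAK1 in check on the outer mitochondrial membrane. BH3-only proteins are sensors: each is raised or activated by particular stresses and binds into the groove of the survival proteins, which frees the effectors, and some of them also activate BAX and BAK1 directly. Once BAX and BAK1 oligomerize, cytochrome c leaks out and caspases are switched on. BCR-ABL1 is known to support survival through STAT5, which acts on BCL2L1 and MCL1, and through ERK and PI3K signalling, which keep BIM low, and red cell precursors are known to rely on BCL-XL late in their maturation. The amounts of mRNA measured here say nothing of protein, and the stability of several of these proteins is regulated.

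Levels are in CPM, the count of a gene relative to a fixed number of counts in its library, after TMM scaling for library composition. Library totals ranged from 33457078 to 50506990 counts. The 5 erythroid markers examined, GATA1, TAL1, LMO2 and the globin genes HBG1 and HBZ, were all above 1 CPM on average. Their summed level ranged from 683 to 1050.5 CPM in mock DMSO and from 758 to 846 CPM in hemin DMSO. It was 5299 to 6922 CPM in mock nilotinib and 6441 to 11860.3 CPM in hemin nilotinib. The sum was thus higher in every nilotinib library than in any DMSO library. Of 4 myeloid markers (SPI1, MPO, ELANE and CD14), 2 averaged at least 1 CPM, and their sum was 73.3 to 79.5 CPM in mock DMSO and 59.6 to 76.1 CPM in hemin DMSO, against 14.3 to 17.6 CPM in mock nilotinib and 8.02 to 10.998 CPM in hemin nilotinib. The sums of 4 megakaryocyte and 4 lymphoid markers, of which 2 and 1 averaged at least 1 CPM, were also lower in every nilotinib library than in any DMSO library. Megakaryocyte markers reached 13.0 to 30.7 CPM in the nilotinib libraries and 31.8 to 70.7 CPM in the DMSO libraries, and lymphoid markers 1.58 to 4.34 CPM and 6.32 to 15.7 CPM. Sums of 3 epithelial and 3 fibroblast markers overlapped between nilotinib and DMSO. The part of these markers in the values of the BCL2 family was not tested. Mitochondrial genes took 1.45 to 2.88% of counts in hemin DMSO and 5.20 to 8.83% in the other conditions' 9 libraries. The library hemin nilotinib replicate 1 lay farthest from its own replicates, with a root mean square difference of 0.741 on the log2 scale against 0.374 to 0.664 for the other 11, and values that it moved most are also given without it.

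Windows reaching from 250 bases before to 50 bases after a start site were found in RefSeq (GRCh38.p14) for 8 of the 10 members, with 9 start sites, and were not given for MCL1 and BIK. They were searched on both strands for 7 motifs of factors that act on this family: GTAAACA for FOXO factors, TTCNNNGAA for STAT factors, AGATAA or TGATAA for GATA factors, TGACGT for the ATF/CREB factors, TGACTCA for AP-1 dimers, the E-box CACGTG, and TTTGGCGC or TTTCGCGC for E2F proteins. Shown here are BCL2L11, PMAIP1 and BCL2L1, the members with more than 1 CPM whose levels moved most with nilotinib or hemin, and BAX, which passed no test, each shown only where no exon is annotated and with motif letters in capitals. The BCL2L11 stretch lies within the span of the gene, after its first annotated start, and the other 3 lie before their genes.
BCL2L11 (chr2:111120664-111120913, plus strand): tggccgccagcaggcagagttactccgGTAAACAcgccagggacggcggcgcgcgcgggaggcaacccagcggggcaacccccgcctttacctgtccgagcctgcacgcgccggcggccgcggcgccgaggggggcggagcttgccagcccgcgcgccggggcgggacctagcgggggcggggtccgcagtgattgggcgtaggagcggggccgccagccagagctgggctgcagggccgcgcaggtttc
PMAIP1 (chr18:59899746-59899947, plus strand): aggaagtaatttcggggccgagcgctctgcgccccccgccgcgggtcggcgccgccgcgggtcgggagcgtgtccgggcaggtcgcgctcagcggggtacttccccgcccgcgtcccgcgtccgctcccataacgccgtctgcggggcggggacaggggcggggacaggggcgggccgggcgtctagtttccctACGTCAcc
BCL2L1 (chr20:31723990-31724213, minus strand): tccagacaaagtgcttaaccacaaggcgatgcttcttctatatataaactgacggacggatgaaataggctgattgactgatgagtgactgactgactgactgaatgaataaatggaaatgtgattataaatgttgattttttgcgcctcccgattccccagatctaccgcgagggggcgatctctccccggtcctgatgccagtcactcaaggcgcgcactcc
BAX (chr19:48954625-48954814, plus strand): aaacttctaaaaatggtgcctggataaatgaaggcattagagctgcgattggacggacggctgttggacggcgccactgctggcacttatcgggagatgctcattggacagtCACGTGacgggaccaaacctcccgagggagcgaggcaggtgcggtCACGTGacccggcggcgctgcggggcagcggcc
The BCL2L11 window held the FOXO letters 223 bases before the start site, and 3.42% of 35116 RefSeq windows held them. The PMAIP1 window held the ATF/CREB letters on the reverse strand, 56 bases before the start, as did 7.98% of all windows. The BAX window held the E-box at 138, 93, 45 and 14 bases before the start, the last pair in the annotated exon and not printed, and 7.26% of all windows held at least 1 E-box. Among the other members, BBC3 held an E-box at 232 and an AP-1 match at 113 bases, and BCL2A1 a STAT match at 168 bases before the start. AP-1 and STAT letters were in 4.95% and 7.66% of all windows. No window of a member held the GATA letters, present in 16.3% of all windows, or the E2F letters, present in 1.15%, and the windows of BCL2, BCL2L1 and BAK1 held none of the 7 motifs. A match shows only that these letters are there.

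Nilotinib moved the BH3-only genes in both directions, lowered all 3 tested survival genes in cells without hemin, and lowered 1 of the 2 effectors with and without hemin. With hemin present, 2 of the 9 tested members rose (BCL2L11 and BCL2L1) and 5 fell (BCL2, MCL1, PMAIP1, BIK and BAK1), at an adjusted p under 0.05 in edgeR's quasi-likelihood test. That is 7 of 9, where 64.2% of all genes tested were called, 32.4% higher and 31.8% lower. Without hemin, 2 rose (BCL2L11 and BIK) and 5 fell (BCL2L1, BCL2, MCL1, PMAIP1 and BAK1), again 7 of 9, against 42.5% of all genes (20.7% higher, 21.8% lower). Hemin in cells without nilotinib raised 4 members (MCL1, PMAIP1, BIK and BAK1) and lowered 2 (BCL2L1 and BCL2L11), 6 of 9 against 53.6% of all genes (25.7% higher, 27.8% lower). Hemin in cells already under nilotinib changed 1 of 9 (BIK, lower), against 5.8% of all genes (3.52% higher, 2.28% lower). That BIK call was not made in edgeR with these 6 libraries alone and their replicate numbers treated as pairs (adjusted p = 0.0505). Without hemin nilotinib replicate 1, the counts were 8 with hemin present and 2 for hemin in nilotinib cells. The median size of the members' changes, without regard to sign, was 0.98 on the log2 scale for nilotinib with hemin, beside 0.89 over all genes tested. It was 0.99 beside 0.57 for nilotinib without hemin, 0.55 beside 0.69 for hemin alone and 0.25 beside 0.29 for hemin in nilotinib cells. In bulk RNA, fewer cells of one kind and less RNA per cell cannot be told apart.

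**Figure D1:**
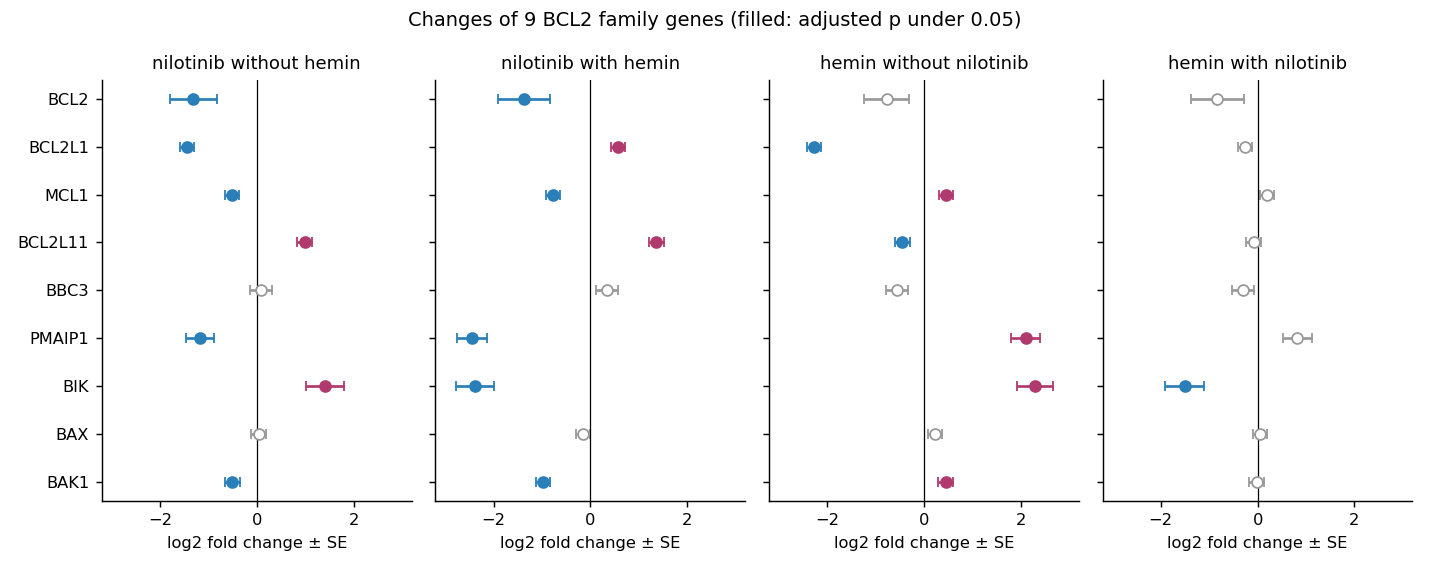
Each point is the log2 fold change of a BCL2 family gene with its standard error (horizontal bars), in 4 comparisons of 3 against 3 libraries. Filled points have an adjusted p under 0.05 (red higher, blue lower) and open points do not. BAX is open in all 4 panels, and BIK is the only filled point in the panel of hemin with nilotinib.

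Among the survival genes, BCL2L1 changed most with hemin. BCL2L1 (ENSG00000171552, chr20:31664452-31723989, minus strand) encodes BCL-XL, a survival protein that STAT5 induces in erythroid cells. Its levels were 180, 167 and 157 CPM in mock DMSO and 53.3, 66.4 and 65.0 CPM in mock nilotinib. They were 28.0, 41.1 and 34.8 CPM in the hemin DMSO libraries, with 53.8, 53.6 and 47.4 CPM in hemin nilotinib. Every mock DMSO library lay far above the other 9, and every hemin DMSO library lay below all others. Hemin alone lowered BCL2L1 4.84-fold (log2 fold change -2.27, SE 0.15, edgeR adjusted p = 1.41e-08) and nilotinib alone lowered it 2.72-fold (-1.45, SE 0.15, adjusted p = 8.41e-07). In hemin-treated cells nilotinib instead raised BCL2L1 1.49-fold (0.57, SE 0.14, adjusted p = 0.00245). It was not called between mock nilotinib and hemin nilotinib (log2 fold change -0.25, SE 0.14, adjusted p = 0.325). Of the exon length of BCL2L1, 43.0% lies opposite ABALON, an antisense transcript on the other strand. Whether counting used strand is not given in the sources used here, and without strand the reads of both cannot be told apart. ABALON itself was counted at a mean of 3.66 CPM in mock DMSO and 0.419 to 0.892 CPM in the other conditions, and its part in the BCL2L1 values was not tested.

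MCL1, a short-lived survival protein that blood progenitors need, moved the other way with hemin. MCL1 (ENSG00000143384, chr1:150574551-150579738, minus strand) was at 211, 200.03 and 199 CPM in mock DMSO and 138, 143 and 147 CPM in mock nilotinib. It reached 304, 218 and 317 CPM with hemin DMSO and stood at 169, 170 and 152 CPM in hemin nilotinib. The hemin DMSO libraries were above, and all 6 nilotinib libraries below, every mock DMSO library. Nilotinib lowered MCL1 1.71-fold with hemin (log2 fold change -0.77, SE 0.14, adjusted p = 0.000147) and 1.42-fold without it (-0.51, SE 0.14, adjusted p = 0.00701). Hemin alone raised it 1.37-fold (0.46, SE 0.14, adjusted p = 0.0106). That last call was lost without composition factors (0.23, adjusted p = 0.21), a scaling that moved the median of all genes from -0.05 to -0.29, and without mock DMSO replicate 3 (adjusted p = 0.0617).

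BCL2 was at the edge of detection. The gene that names the family (ENSG00000171791, chr18:63123346-63320128, minus strand) had 4 to 61 counts per library. Its levels were 0.863, 1.10 and 1.17 CPM in mock DMSO, 0.583, 0.466 and 0.202 CPM in mock nilotinib, 0.643, 0.414 and 0.760 CPM with hemin DMSO, and 0.460, 0.165 and 0.0934 CPM in hemin nilotinib. All mock DMSO libraries were above the other 9, and hemin DMSO overlapped both nilotinib conditions. Nilotinib lowered BCL2 2.59-fold with hemin (log2 fold change -1.37, SE 0.53, adjusted p = 0.0335) and 2.47-fold without hemin (-1.31, SE 0.48, adjusted p = 0.0382). Each of these calls was lost in 4 of 6 fits that left out a library, with adjusted p of up to 0.133 and 0.144. The first was -2.22 without hemin nilotinib replicate 1 and -0.95 without replicate 3. BCL2A1 (ENSG00000140379, chr15:79960889-79971446, minus strand), an NF-kappaB-induced survival gene of myeloid and lymphoid cells, had 0 to 5 counts in every library. In hemin nilotinib it had 0 counts in all 3 libraries, which allows up to 0.0734 to 0.0849 CPM per library at 3 counts.

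**Figure D2:**
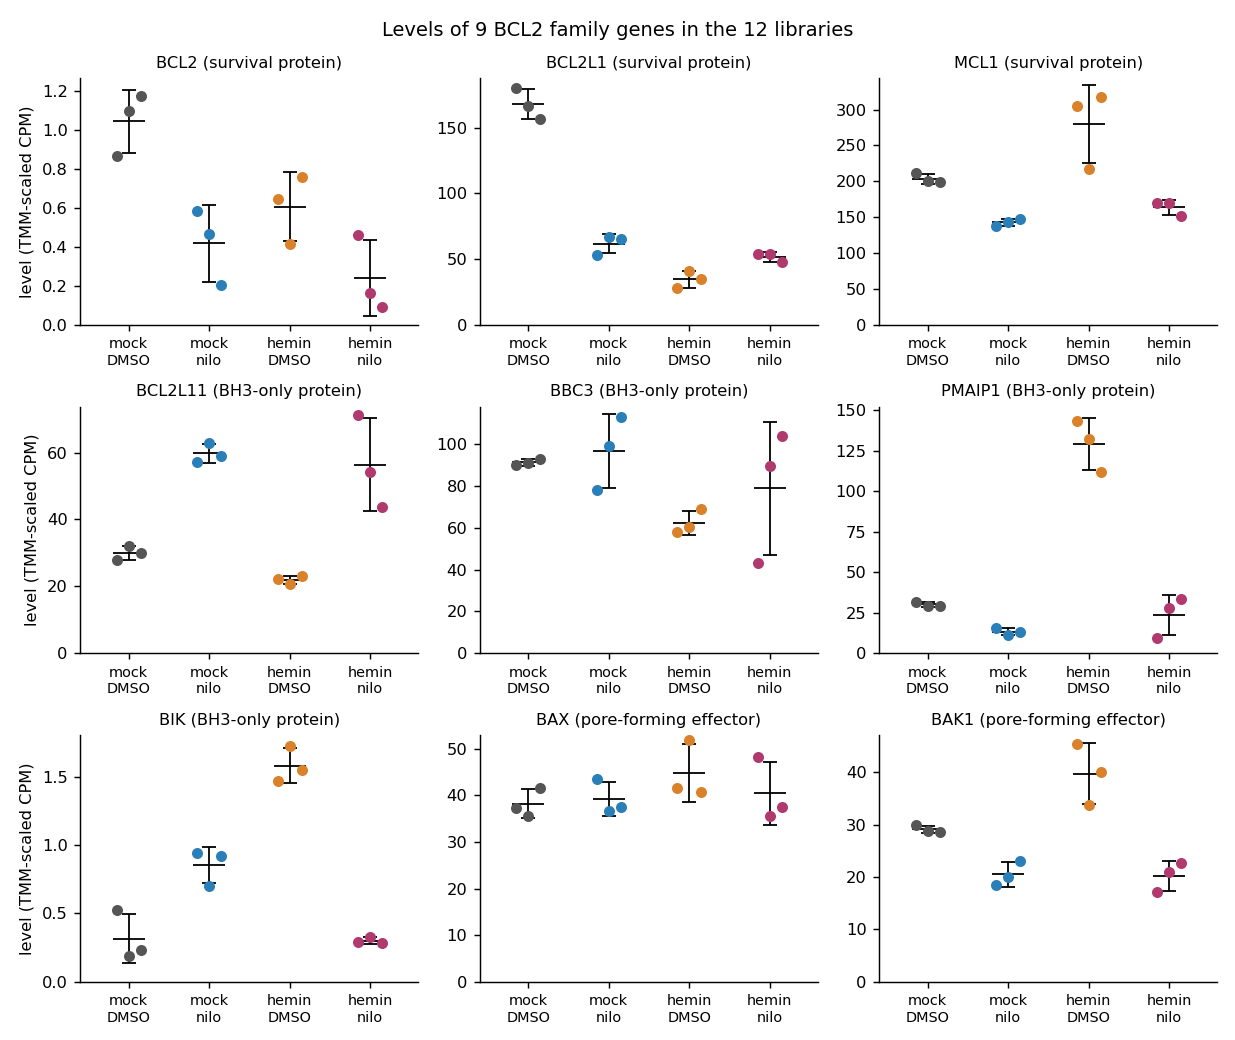
Level of 9 members in TMM-scaled CPM (vertical axes from 0, each on its own scale) by condition, with 1 point per library and lines for the mean and SD (n = 3). PMAIP1 sits at 112 to 144 CPM in hemin DMSO and at no more than 33.3 CPM elsewhere, and hemin nilotinib replicate 1 is the lowest of its condition for BBC3 and PMAIP1 and the highest for BCL2L11.

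Of the BH3-only genes, BCL2L11 followed nilotinib. BCL2L11 (ENSG00000153094, chr2:111119378-111168447, plus strand) encodes BIM, which binds all survival proteins and can activate BAX and BAK1, and which FOXO factors induce and ERK marks for degradation. It was at 28.0, 32.1 and 30.1 CPM in mock DMSO, 57.2, 62.9 and 59.1 CPM in mock nilotinib, 22.1, 20.7 and 23.1 CPM with hemin DMSO, and 71.1, 54.3 and 43.8 CPM in hemin nilotinib. Every nilotinib library was above every DMSO library. Nilotinib raised BCL2L11 2.56-fold with hemin (log2 fold change 1.36, SE 0.15, adjusted p = 1.41e-06) and 1.99-fold without (0.99, SE 0.15, adjusted p = 7.15e-05). Without hemin nilotinib replicate 1, its highest library, the first value was 1.17 (adjusted p = 4.84e-07). Hemin alone lowered it 1.37-fold (-0.45, SE 0.15, adjusted p = 0.0206), a call lost with upper-quartile factors (-0.33, adjusted p = 0.0568) and without replicate 2 of mock DMSO or of hemin DMSO (adjusted p = 0.0681 and 0.0625). Exons of MIR4435-2HG on the opposite strand cover 10.9% of the exon length of BCL2L11. That RNA was counted at a mean of 68.8 and 83.1 CPM in mock DMSO and mock nilotinib and 49.0 and 111 CPM with hemin DMSO and hemin nilotinib, and its part in the BCL2L11 values was not tested.

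PMAIP1 had the widest range of levels, as the ratio of its highest to its lowest library, among members above 1 CPM. PMAIP1 (ENSG00000141682, chr18:59899948-59904306, plus strand) encodes NOXA, which binds MCL1 and is induced by p53 and by the ATF4 stress pathway. K562 cells are known to lack functional p53. PMAIP1 was at 31.9, 29.4 and 29.2 CPM in mock DMSO and 15.9, 11.2 and 13.1 CPM in mock nilotinib. It stood at 144, 132 and 112 CPM with hemin DMSO, and 9.51, 28.2 and 33.3 CPM in hemin nilotinib. The hemin DMSO libraries were apart from the other 9. Hemin alone raised PMAIP1 4.29-fold (log2 fold change 2.10, SE 0.30, adjusted p = 2.55e-05), and nilotinib lowered it 5.45-fold in hemin-treated cells (-2.45, SE 0.30, adjusted p = 3.47e-06) and 2.25-fold without hemin (-1.17, SE 0.30, adjusted p = 0.0045). Without hemin nilotinib replicate 1, its lowest library, the value in hemin-treated cells was -2.06 (edgeR adjusted p = 4.32e-09). In cells under nilotinib, the change with hemin was 0.82 (SE 0.30, adjusted p = 0.114) with all libraries and 1.20 (adjusted p = 4.75e-05) without hemin nilotinib replicate 1, in which PMAIP1 was at 9.51 CPM. It was also called, at 0.82, with every gene of 1 count or more tested (adjusted p = 8.47e-05).

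BIK, a BH3-only gene whose protein sits at the endoplasmic reticulum, showed opposite responses to nilotinib with and without hemin, at low levels. BIK (ENSG00000100290, chr22:43110748-43129712, plus strand) had 8 to 61 counts per library. Its levels were 0.521, 0.191 and 0.231 CPM in mock DMSO, 0.938, 0.700 and 0.922 CPM in mock nilotinib, 1.47, 1.72 and 1.55 CPM with hemin DMSO, and 0.287, 0.329 and 0.280 CPM in hemin nilotinib. Each agent alone put all its libraries above mock DMSO, and the combination lay within the mock DMSO range. Nilotinib raised BIK 2.66-fold without hemin (log2 fold change 1.41, SE 0.39, adjusted p = 0.00752) and lowered it 5.24-fold with hemin (-2.39, SE 0.39, adjusted p = 6.54e-05). Hemin raised it 4.91-fold without nilotinib (2.29, SE 0.38, adjusted p = 0.000106). In nilotinib cells hemin lowered it 2.84-fold (-1.51, SE 0.40, adjusted p = 0.0382). That call was lost in 5 of the 6 fits that left out a library, the exception being the fit without hemin nilotinib replicate 1 (adjusted p = 0.0408). With these 6 libraries alone and the replicate numbers treated as pairs, as a block, the adjusted p was 0.0505.

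BBC3 was the BH3-only gene with the highest level per length in 3 of the 4 conditions and passed 1 of the 7 tests. BBC3 (ENSG00000105327, chr19:47220822-47232766, minus strand) encodes PUMA, a p53 and FOXO target that binds all survival proteins. It was at 89.8, 91.0 and 93.1 CPM in mock DMSO, 78.1, 99.2 and 113 CPM in mock nilotinib, 57.8, 60.2 and 68.8 CPM with hemin DMSO, and 43.1, 89.6 and 104 CPM in hemin nilotinib. The hemin DMSO libraries were below every mock DMSO library, while hemin nilotinib overlapped every other condition. With all libraries, BBC3 was at 0.34 on the log2 scale (SE 0.23) for nilotinib with hemin, adjusted p = 0.201. It was 0.65 (adjusted p = 0.000851) without hemin nilotinib replicate 1 and 0.38 (adjusted p = 0.0433) with every gene of 1 count or more tested. Hemin alone gave -0.55 (SE 0.23, adjusted p = 0.0514), just outside the threshold and within it in 4 alternative fits, and nilotinib alone gave 0.08 (SE 0.23, adjusted p = 0.795), with an approximate 95% interval from -0.36 to 0.53.

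The effectors split. BAX (ENSG00000087088, chr19:48954815-48961798, plus strand), which is mostly cytosolic until it is activated, passed no test in any of the 7 comparisons. Its levels were 37.4, 35.6 and 41.6 CPM in mock DMSO, 43.5, 36.6 and 37.5 CPM in mock nilotinib, 41.5, 52.0 and 40.8 CPM with hemin DMSO, and 48.2, 35.7 and 37.5 CPM in hemin nilotinib. All 4 conditions overlapped. With upper-quartile factors, a call was made for hemin alone (0.35, adjusted p = 0.0385). The log2 fold change was -0.15 for nilotinib with hemin (approximate 95% interval -0.43 to 0.14) and 0.04 without hemin (-0.25 to 0.33). BAK1 (ENSG00000030110, chr6:33572547-33580293, minus strand), which resides in the mitochondrial membrane and is held by MCL1 and BCL-XL, did change. Of its 150-base words, 0.424% also occur in the pseudogene BAK1P1. It was at 29.9, 28.8 and 28.6 CPM in mock DMSO, 18.5, 19.97 and 23.1 CPM in mock nilotinib, 45.4, 33.7 and 40.1 CPM with hemin DMSO, and 17.0, 20.9 and 22.6 CPM in hemin nilotinib. Hemin DMSO was above mock DMSO, and mock DMSO above all nilotinib libraries, with no overlap. Nilotinib lowered BAK1 1.97-fold with hemin (log2 fold change -0.98, SE 0.15, adjusted p = 3.69e-05) and 1.42-fold without (-0.50, SE 0.15, adjusted p = 0.013). The second call was lost without mock nilotinib replicate 1 (adjusted p = 0.0597) and with upper-quartile factors (adjusted p = 0.0548). Hemin alone raised BAK1 1.37-fold (0.45, SE 0.15, adjusted p = 0.0188). That call was lost in 4 of 6 fits that left out a library and without composition factors (0.21, adjusted p = 0.279).

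Ordered by level, the 4 conditions thus took different orders in different members. For MCL1, PMAIP1 and BAK1, hemin DMSO came first and mock DMSO next, and these neighbours differed past the threshold in all 3 genes. The next neighbours, mock DMSO and hemin nilotinib for MCL1 and PMAIP1, did not (adjusted p = 0.0723 and 0.346). For BCL2L11 both nilotinib conditions led and were not told apart (adjusted p = 0.791), followed by mock DMSO and hemin DMSO, each below its neighbour. BCL2L1 ran from mock DMSO through both nilotinib conditions to hemin DMSO. For BCL2, BBC3 and BAX no pair of neighbours passed the test.

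Whether nilotinib acted differently with hemin than without was tested as an interaction, the difference between the 2 log2 fold changes of nilotinib. It passed for 3 of 9 members, against 30.1% of all genes (17.1% higher, 13% lower). For BCL2L1 the difference was 2.02 (SE 0.20, adjusted p = 7.92e-06), from a fall without hemin to a rise with it. For BIK it was -3.80 (SE 0.55, adjusted p = 0.000141), from a rise without hemin to a fall with it. PMAIP1 fell in both settings, and further with hemin (-1.28, SE 0.41, adjusted p = 0.0286), a call lost in 6 of 12 fits that left out a library and without composition factors (-1.05, adjusted p = 0.0797). For BCL2L11 the difference was 0.37 (approximate 95% interval -0.05 to 0.79) and was not called. It was 0.18 (adjusted p = 0.487) without hemin nilotinib replicate 1, and was called at 0.56 without replicate 3 (adjusted p = 0.034) and without composition factors (adjusted p = 0.0473). For MCL1 the difference was -0.26 (-0.64 to 0.12). For BAK1 it was -0.47 (-0.89 to -0.05, adjusted p = 0.106), and -0.58 and called without hemin DMSO replicate 2 (adjusted p = 0.0474). For BBC3 it was 0.26 (adjusted p = 0.583), and 0.57 (adjusted p = 0.0371) without hemin nilotinib replicate 1. These comparisons share libraries, so their values for a gene are not independent.

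**Figure D3:**
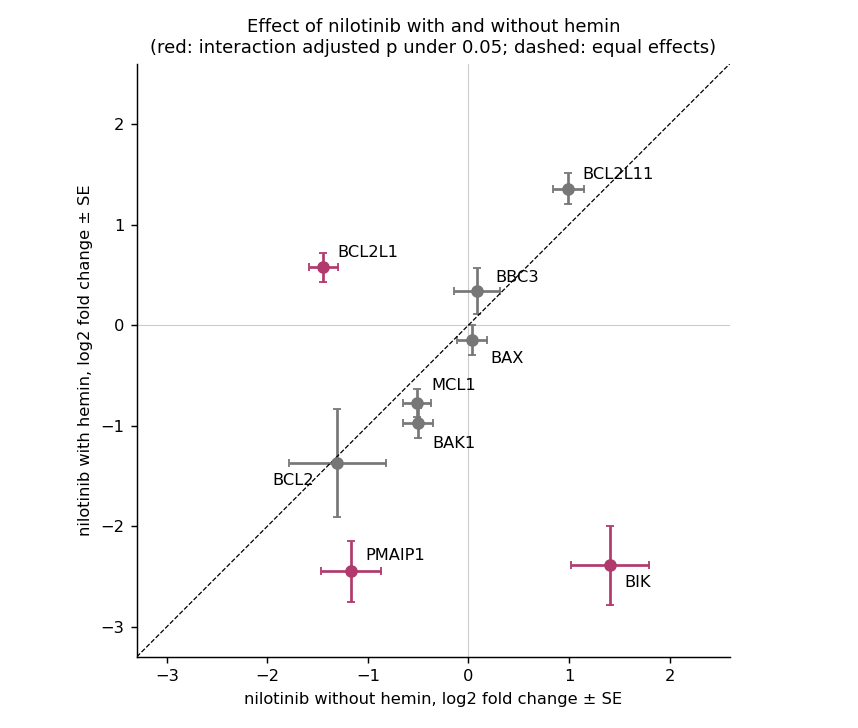
Log2 fold change of each member with nilotinib without hemin (horizontal) and with hemin (vertical), with standard errors; the dashed line marks equal changes. Members in red, BCL2L1, BIK and PMAIP1, passed the test of the difference, and BCL2L1 and BIK lie in the quadrants of opposite sign.

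Against untreated cells, the combination of nilotinib and hemin changed 4 of 9 members, where 46.6% of all genes were called, 24.2% higher and 22.4% lower. BCL2L11 rose (log2 fold change 0.91, SE 0.15, adjusted p = 0.00016), and BCL2L1 (-1.70, SE 0.15, adjusted p = 1.51e-07), BCL2 (-2.14, SE 0.51, adjusted p = 0.00288) and BAK1 (-0.53, SE 0.15, adjusted p = 0.0094) fell. Without hemin nilotinib replicate 1 the value for BCL2 was -3.01. PMAIP1 and BIK, both high in hemin DMSO, were at -0.35 (adjusted p = 0.346) and -0.10 (adjusted p = 0.87) in the combination. Nilotinib alone and hemin alone, compared directly, differed in 7 of 9 members, against 65.8% of all genes (32.5% higher, 33.4% lower). BCL2L11 (1.44, SE 0.16, adjusted p = 5.94e-07), BCL2L1 (0.83, SE 0.14, adjusted p = 9.81e-05) and BBC3 (0.63, SE 0.23, adjusted p = 0.0221) were higher with nilotinib. PMAIP1 was 9.65-fold lower with nilotinib than with hemin (-3.27, SE 0.32, adjusted p = 1.75e-07), MCL1 1.96-fold lower (-0.97, SE 0.14, adjusted p = 1.41e-05), BAK1 1.94-fold lower (-0.95, SE 0.15, adjusted p = 4.04e-05) and BIK 1.85-fold lower (-0.88, SE 0.36, adjusted p = 0.0393). The BIK call was lost in all 6 fits that left out a library, with adjusted p from 0.0556 to 0.139. The BBC3 call was lost without hemin DMSO replicate 1 or 2 or mock nilotinib replicate 3, with adjusted p from 0.0608 to 0.0699.

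To compare genes with each other, levels were divided by gene length (TMM-scaled CPM per kilobase) and summed by role, as a description with no test. The length is that of all annotated exons of a gene together (3314 bases for BCL2L1, 4371 for MCL1), not of the transcripts present in these cells. Shares and ratios between genes depend on it, and for BCL2L1 also on the strand question given above. Only the members entered these sums, shares and ratios. Other family genes given below, among them the BH3-only gene BMF and the survival gene BCL2L2, are not in them. The survival genes summed to 97.3 ± 4.99 (SD, n = 3) in mock DMSO, 51.4 ± 3.17 in mock nilotinib, 74.5 ± 10.9 in hemin DMSO and 53.1 ± 3.50 in hemin nilotinib. MCL1 made up 47.9% of that sum in mock DMSO, 63.8% in mock nilotinib, 85.4% in hemin DMSO and 70.6% in hemin nilotinib. The share of BCL2L1 went from 52.0% in mock DMSO to 36.1, 14.5 and 29.4% in the same order. On this scale, the near-even split between BCL2L1 and MCL1 in mock DMSO was replaced by a majority of MCL1 in the other 3 conditions. The BH3-only genes summed to 47.1 ± 0.246 in mock DMSO, 46.3 ± 4.99 in mock nilotinib, 82.4 ± 5.23 in hemin DMSO and 44.2 ± 13.6 in hemin nilotinib. In hemin DMSO, PMAIP1 held 70.0% of this sum and BBC3 23.9%, whereas in mock DMSO BBC3 held 61.0% and PMAIP1 28.7%. BCL2L11 held 9.59% in mock DMSO, 19.5% in mock nilotinib, 4.02% in hemin DMSO and 21.9% in hemin nilotinib. Its hemin nilotinib libraries were at 37.1, 16.5 and 12.1%, and the mean without replicate 1 was 14.3%, under that of mock nilotinib. The effectors summed to 27.9 ± 1.13, 24.4 ± 1.09, 35.2 ± 1.34 and 24.8 ± 1.55. The log2 ratio of the survival to the BH3-only sum was 1.05 ± 0.0701 in mock DMSO, 0.15 ± 0.0814 in mock nilotinib, -0.15 ± 0.264 in hemin DMSO and 0.31 ± 0.559 in hemin nilotinib. All 9 treated libraries were below the 3 mock DMSO libraries, with hemin nilotinib replicate 1 highest at 0.93. Without that library the hemin nilotinib mean was 0.0046 for the ratio and 51.9 for the BH3-only sum. In mock nilotinib the ratio was lower beside a BH3-only sum within the spread of its replicates, and in hemin DMSO it was lower beside a higher BH3-only sum and a lower survival sum.

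**Figure D4:**
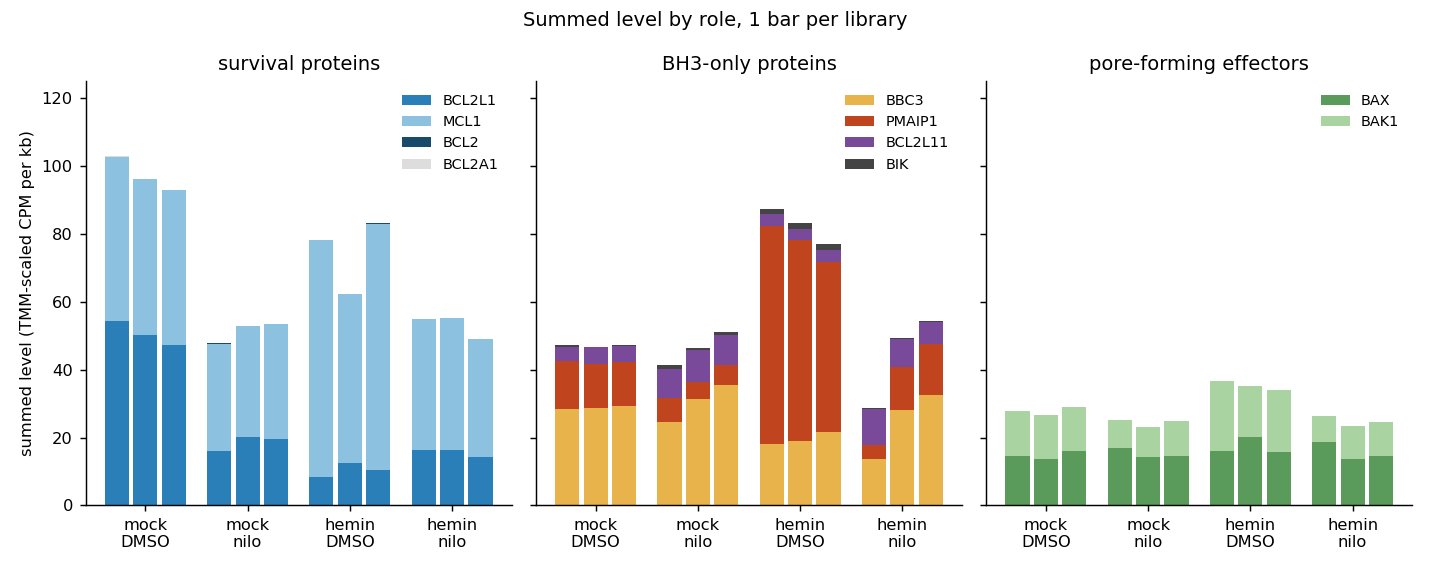
Summed level of the members by role (vertical axis, TMM-scaled CPM per kilobase), with 1 stacked bar per library and 1 color per gene. BCL2L1 takes 52.0% of the survival sum in mock DMSO and 14.5% in hemin DMSO, and PMAIP1 takes 70.0% of the BH3-only sum in hemin DMSO.

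Over the 12 libraries, which share conditions and scaling, BCL2L11 ran opposite to BAK1 (Pearson r of log2 CPM -0.94) and to PMAIP1 (-0.91), and MCL1 ran with BAK1 (0.92) and PMAIP1 (0.85). BBC3 and BAX ran opposite (-0.78). BCL2L1 followed none of the other members with an r beyond 0.64 in size, the value for BIK being -0.64. The genes most like each member were looked for among 8921 protein-coding genes with at least 10 CPM. For PMAIP1 they were COG3 (r = 0.991), HERPUD1 (0.989), a gene of the endoplasmic reticulum stress response, and ATF3 (0.987), a stress-induced transcription factor. For BCL2L11 they were ARRDC2 (0.992), RBM38 (0.991), an RNA-binding protein gene, and ELOVL1 (0.990). BCL2L1 was most like NAA11 (0.985), NUDT16 (0.977) and PIK3CB (0.977), MCL1 most like FAM13B (0.977), NRBF2 (0.976) and ALG2 (0.973), and BAK1 most like SMURF2 (0.978), MKNK2 (0.976) and NBPF9 (0.976). The best matches were weaker for BBC3 (AZU1 0.950, MCF2L2 0.897 and EPS8L2 0.888) and for BAX (POLR2L 0.857, NDUFAF8 0.857 and TAF2 0.853). With 4 conditions behind 12 points, such values are high for many genes.

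Of 12 further family genes, 10 were tested. With nilotinib and hemin 3 rose and 4 fell, without hemin 1 rose and 4 fell, and with hemin alone 3 rose and 4 fell, against the same 64.2, 42.5 and 53.6% of all genes. BMF, a BH3-only gene related in function to BIM, stood at 20.3 ± 8.15 CPM in mock DMSO and 66.6 ± 20.5 CPM in mock nilotinib, and at 11.3 ± 1.61 CPM with hemin DMSO, against 42.8 ± 12.7 CPM with hemin nilotinib. Nilotinib raised it as it did BCL2L11, with log2 fold changes of 1.92 (SE 0.29, adjusted p = 3.11e-05) with hemin and 1.72 (SE 0.29, adjusted p = 0.000164) without. BCL2L15, a little-studied member, was at 4.53, 4.69 and 5.24 CPM in hemin DMSO and at or under 0.467 CPM in the other 9 libraries. HRK, a BH3-only gene of neurons, had 19 to 44 counts in hemin DMSO, 5 to 13 in mock DMSO and 0 to 2 in the 6 nilotinib libraries. BCL2L2 (BCL-w), a survival gene, fell with hemin alone (-0.62) and was higher with nilotinib in hemin cells (0.73, SE 0.16, adjusted p = 0.000689). BID, which links caspase-8 to the mitochondria, fell with nilotinib with and without hemin (-0.64 and -0.48). BNIP3, a mitophagy gene, did the same (-0.85 and -0.75), while BNIP3L, which clears mitochondria from red cells, rose with nilotinib in hemin cells (0.42) and was at -0.08 without hemin, and the interaction (0.50) did not pass. BOK fell with nilotinib without hemin (-0.87), and BAD and BCL2L13 passed none of these 3 tests. BCL2L10 and BCL2L14 were below the filter.

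**Figure D5:**
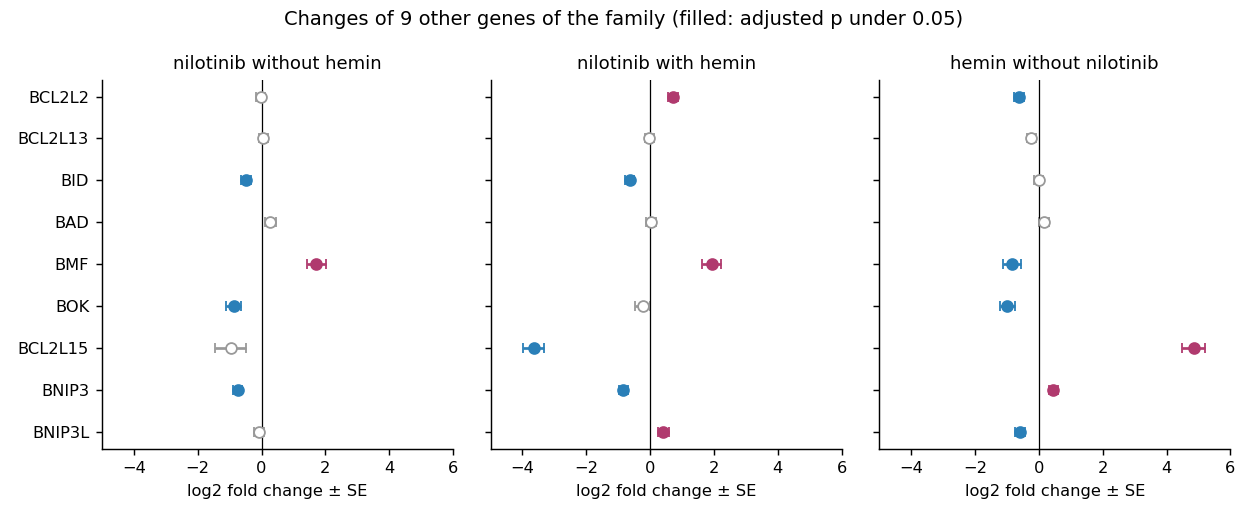
Log2 fold change with its standard error (horizontal bars) for 9 other genes of the family in 3 comparisons of 3 against 3 libraries. Filled points have an adjusted p under 0.05 (red higher, blue lower). BMF is higher with nilotinib in both settings and BCL2L15 is higher with hemin alone and lower with nilotinib in hemin cells; HRK, at 0 to 2 counts in the nilotinib libraries, is left out.

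Factors known to control the members are listed for reading beside them, and their part in the members' values was not tested. Of 14 such genes, 7 rose and 7 fell with nilotinib in hemin cells, and 4 rose and 4 fell without hemin, where 64.2 and 42.5% of all genes were called. FOXO3 and FOXO4 rose with nilotinib without hemin (1.34 and 1.60) and with it (0.74 and 0.92). FOXO1 rose without hemin (0.74) and fell with it (-1.21). STAT5A, an inducer of BCL2L1, fell with nilotinib without hemin (-1.18), rose with it (0.99) and fell with hemin alone (-2.51). STAT5B, its close relative, was at 0.25 with nilotinib without hemin (adjusted p = 0.178), rose with nilotinib in hemin cells (0.66) and fell with hemin alone (-0.57). DDIT3 and TRIB3, stress genes, fell with nilotinib without hemin (-1.60 and -3.36) and with it (-1.88 and -2.79). With hemin alone DDIT3 rose (1.19) and TRIB3 was at 0.06 (edgeR adjusted p = 0.838). ATF4 fell with nilotinib in hemin cells (-1.08). It was not called for nilotinib without hemin (-0.57, edgeR adjusted p = 0.105) or for hemin alone (0.27, edgeR adjusted p = 0.43). MYC fell with nilotinib without hemin (-2.18) and with it (-1.47), and E2F1 (1.52) and NFKB1 (1.08) were the largest rises in hemin cells. JUN rose with hemin alone (3.49) and fell with nilotinib in hemin cells (-3.18). Of 4 genes that set the turnover of MCL1 protein, BTRC rose in both settings (1.23 with hemin, 0.88 without) and FBXW7 fell in both (-1.49 and -0.41), while USP9X rose without hemin (0.59).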

How the data were processed

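RNA of 12 K562 libraries was read as 150-base pairs. The authors deposited raw counts of reads per gene from their sequencing service and FPKM per gene and library, whose scaling follows size factors of the 12 libraries. The submitters' processing notes name GRCh38.p12, DESeq and DESeq2 without versions, and the aligner, counter and strand setting are not given in the sources used here. Deposited condition means of FPKM were left aside. Of the genes, 58724 of 58735 have the start and end of GENCODE 29, and 40578 had at least 1 count.

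Counts were fitted in edgeR 4.0.16 (R 4.3.3) by quasi-likelihood with the 12 libraries in one design of 4 condition means, after filterByExpr (minimum count 10, minimum total 15) and TMM scaling, with Benjamini-Hochberg adjustment over 20821 genes, two-sided, and calls at an adjusted p under 0.05. The p measure the spread between replicates of this line, estimated from the 12 libraries together and not from the 3 against 3 compared. Replicates were not equally alike, with Pearson r of log2 CPM of 0.969 to 0.986 in hemin nilotinib and 0.990 to 0.992 in mock DMSO. The biological coefficient of variation was 0.198. Approximate 95% intervals are normal intervals from the SE. Alternatives were DESeq2 1.42.0, other scalings and filters, a 2-fold minimum, limma 3.58.1 on log2(FPKM + 1) and log2(FPKM + 0.1), 6 libraries alone, replicate number as block, and leaving out each library. The reported fits used no pairs. Between same-numbered libraries of mock nilotinib and hemin nilotinib, deviations from the condition means correlated at 0.199 to 0.263. Only there were the replicate numbers of the labels read as pairs, in an alternative fit of those 6 libraries. For any other 2 conditions at least 1 of 3 correlations was under 0.1. The sample titles give the numbers and name no pairs. The block in the 6 libraries of mock nilotinib and hemin nilotinib alone was added after the data were seen. The procedures were tested on simulated data. Limits from 0 counts use 3 counts and cover counting error only.

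All members were named. From the other lists, the family genes and, per list and per nilotinib comparison, the 2 largest rises and 2 largest falls among called genes with at least 1 CPM were named, and for each member with at least 1 CPM the 3 most alike genes. GATA1 fold changes, STAT5A, STAT5B, FOXO1, DDIT3 and ATF4, and values of named genes in comparisons other than their own, were chosen after their values were seen. The members and lists were chosen with earlier results of these data known. One further erythroid marker is not reported here. No protein sequences were used here.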

Additional observations from a re-analysis of the deposited data

Results flagged for a closer look

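For 3 members, values stood out because the effect of nilotinib differed between cells with and without hemin by a test of the difference itself, the interaction in edgeR's quasi-likelihood test. The difference was 2.02 on the log2 scale for BCL2L1 (adjusted p = 7.92e-06), -1.28 for PMAIP1 (adjusted p = 0.0286) and -3.80 for BIK (adjusted p = 0.000141). In every fit that left out a library the differences kept their signs, with 1.88 to 2.15 for BCL2L1, -1.57 to -0.89 for PMAIP1 and -4.31 to -3.55 for BIK. The PMAIP1 call was lost in 6 of these 12 fits, and without composition factors (edgeR adjusted p = 0.0797). BIK rests on 8 to 61 counts per library.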

How the results depend on the processing

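The counts of called members were within 1.5 times of those reported under DESeq2, RLE, upper-quartile or no composition factors, both FPKM scales and the replicate block for all 7 comparisons, other than the exceptions given here. A 2-fold minimum left 3 members for nilotinib with hemin, 1 for nilotinib without hemin, 3 for hemin without nilotinib, 0 for hemin with nilotinib, 2 for the combination against untreated and 2 for nilotinib alone against hemin alone. For hemin with nilotinib the 1 called member became 2 with all genes of at least 1 count, 0 with at least 10 counts in every library, 0 with the 6 libraries alone, and 0 to 2 when a library was left out. With the replicate number as a block over all libraries that count was 1, and with the block in these 6 libraries alone it was 0. BBC3 became a call for hemin without nilotinib with the block (-0.56, adjusted p = 0.0172), although the numbers were not treated as pairs for those libraries. It was also called with all genes of at least 1 count (-0.63, adjusted p = 0.000413), the 6 libraries alone (-0.51, adjusted p = 0.00232) and no composition factors (-0.79, adjusted p = 0.0117). The block changed no other call of a member in a comparison of all libraries. MCL1 became a call for the combination against untreated with the 6 libraries alone (-0.33, adjusted p = 0.0327) and no composition factors (-0.38, adjusted p = 0.0476). The summed BH3-only level in mock DMSO was 46.5 from the deposited FPKM.

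Values that changed sign were all uncalled. Without composition factors they were BAX with nilotinib and hemin (0.036), hemin alone (-0.018), nilotinib against hemin (0.029) and the interaction (0.025), and BCL2 in the interaction (0.11). The BCL2 interaction was also 0.0077 with all genes of at least 1 count, 0.027 on log2(FPKM + 1), 0.14 on log2(FPKM + 0.1), and -0.92 to 0.38 with a library left out. BAK1 for hemin with nilotinib was 0.0058 with at least 10 counts in every library, and BIK for the combination against untreated was 0.0084 with upper-quartile factors and 0.020 on log2(FPKM + 0.1). With a library left out, nilotinib without hemin ranged from -0.071 to 0.22 for BBC3 and -0.045 to 0.080 for BAX. Hemin with nilotinib ranged from -0.29 to 0.063 for BCL2L11, -0.10 to 0.13 for BAX and -0.12 to 0.084 for BAK1. The combination against untreated ranged from -0.50 to 0.079 for BBC3, -0.72 to 0.023 for PMAIP1, -0.34 to 0.45 for BIK and -0.068 to 0.13 for BAX. The cause was not tested. Depth limits BCL2, BIK and BCL2A1, whose counts did not exceed 61.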

Other observations

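Other genes of the death machinery, none a member, moved as follows in edgeR's quasi-likelihood test. Of 17 genes of mitochondrial apoptosis, 7 rose and 7 fell with nilotinib in hemin cells, and 2 rose and 6 fell without hemin. For hemin in nilotinib cells 0 passed, where 5.8% of all genes were called. CYCS, which encodes cytochrome c, fell in both nilotinib comparisons (-1.36 with hemin, -1.51 without). APAF1, the scaffold that cytochrome c activates, fell with hemin (-1.17), and AIFM1, a mitochondrial flavoprotein gene, fell without it (-0.996). HTRA2, a mitochondrial protease gene, rose in both (1.06 and 0.63), ENDOG rose with hemin (1.20), and BIRC2, a caspase-binding ubiquitin ligase gene, rose without it (0.68).

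Of 11 death receptor genes, 6 rose and 5 fell with nilotinib in hemin cells, and 2 rose and 4 fell without hemin. TNFRSF10B, a receptor for TRAIL, fell with hemin (-3.22) and without it (-4.30), and TNFRSF10A, its relative, fell without hemin (-1.78). The adaptors TRADD (1.62) and FADD (1.59) rose with hemin and CASP10 fell (-1.02), and TRADD rose without hemin (0.74). Of 12 genes known as p53 targets, 5 rose and 5 fell with hemin, and 4 rose and 2 fell without. CDKN1A, the p21 cell cycle inhibitor, fell in both (-4.31 and -1.01) and SESN2 fell with hemin (-2.04), while TP53INP1 (1.40 and 1.62) and TP53I3 (1.15 and 0.94) rose in both and ZMAT3 fell without hemin (-0.84). The background is 64.2% of all genes called with hemin and 42.5% without.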
